A study of Mus musculus with 31 samples.

Results

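The 216 genes described here are the expressed genes of mouse chromosome 16 in 6 RNA-seq libraries of female dermal fibroblasts. They were chosen by position and level: a gene had to lie on chromosome 16 in the exon table and to reach 1500 raw counts summed over the 6 libraries, with 1 transcript taken per symbol. Of 755 symbols of the chromosome, 216 met the rule, of 24470 symbols in the whole table; the interferon-induced Mx2 reached the minimum too but was left out by name, as was Mx1. Just inside the minimum lay Ift57 with 1507.5, Tra2b with 1518 and Timmdc1 with 1554 counts, and just outside it Sod1 with 1465, Filip1l with 1483.5 and 4930453N24Rik with 1497.5. The chromosome was selected on a higher level of its genes in both deleted lines than in WT, seen in these same libraries, so that higher level is described below with no test of the chromosome as a whole.

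The libraries fell into 3 groups of 2. Line 1 (XaWT XiΔXist) and line 2 (XaWT XiΔXist #2, a second cell line) carried a deletion of Xist on the inactive X chromosome, and WT fibroblasts did not. All 3 groups came from female hybrids of CAST/Ei and 129/Sv/Jae. Each line is its own cell line, so the deletion and whatever else sets a line apart from WT cannot be told apart. The 2 libraries of a group are given as biological replicates, and nothing in the sources used here says whether they were separate cultures or animals, so every p-value measures the spread between these libraries alone.

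Chromosome 16 is an autosome. Its proximal end holds orthologs of the human 22q11 region, whose loss causes DiGeorge syndrome, and its distal end holds most mouse orthologs of human chromosome 21, the chromosome present in an extra copy in Down syndrome. Between and among them lie matrix and adhesion genes, the antiviral cluster of Parp14, Dtx3l and Parp9, and the receptor cluster that senses interferons and interleukin-10. Xist, the deleted gene, lies on the X chromosome and makes a noncoding RNA that spreads over the inactive X to silence it.

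Libraries held 3.81e+06 to 7.06e+06 exon counts, and replicate 1 was the shallower library in every group. Xist was at 1.08 and 0.273 CPM (read counts brought to a common library size, with TMM scaling) in line 1, 0.969 and 0.282 CPM in line 2, against 633 and 429 CPM in WT. The summed level of 10 fibroblast markers was 3445 to 5539 CPM in line 1, 4302 to 5377 CPM in line 2 and 4347 to 5312 CPM in WT, and fibroblast markers were thus abundant in all 6 libraries. Markers of other cells were sparse: 8 leukocyte markers summed to 6.82 to 14.3 CPM in line 1, 5.08 to 5.09 CPM in line 2 and 2.88 to 4.29 CPM in WT, with Tyrobp at 0 in every library. The 5 endothelial markers summed to 2.43 to 3.28 CPM in line 1, 5.36 to 5.57 CPM in line 2 and 1.44 to 1.77 CPM in WT. The 6 keratinocyte and epithelial markers stayed between 0.141 and 1.44 CPM in all libraries, and the 6 melanocyte and Schwann markers between 8.32 and 12.6 CPM, with Dct at 0. The part of these cells in any result was not tested. In bulk RNA, fewer cells of a type and less RNA per cell cannot be told apart.

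The genes of chromosome 16 were slightly higher in both lines. Their spread was narrower in line 2, as was that of the other autosomal genes. The median log2 fold change of the 216 members was 0.11 in line 1 (quartiles -0.05 and 0.32) and 0.19 in line 2 (quartiles 0.11 and 0.32), 1.08-fold and 1.14-fold. The 6100 other autosomal genes that reached the same minimum had medians of -0.02 in line 1 and -0.01 in line 2. Their quartiles were -0.20 and 0.18 in line 1, and -0.14 and 0.11 in line 2. In line 2, 189 of 216 members (87.5%) lay above 0, against 2866 of the other genes (47.0%), and in line 1 149 members (69.0%) did, against 2830 of the others (46.4%). Most members lay close to 0. In line 2, 170 members lay between 0 and 0.5 on the log2 scale (78.7%, against 44.0% of the other genes). Another 19 lay above 0.5 (8.80%, against 2.95%), 26 between -0.5 and 0 (12.0%, against 49.6%), and 1 below -0.5 (0.463%, against 3.41%). Line 1 was wider, with 129 members between 0 and 0.5 (59.7%, against 38.0%) and 20 above (9.26%, against 8.43%). A further 56 lay between -0.5 and 0 (25.9%, against 45.3%) and 11 below -0.5 (5.09%, against 8.26%). The other genes were wider in line 1 too. In both lines 142 members lay above 0 (65.7%, against 29.6% of the other genes). At or below 0 in both lay 20 members (9.26%, against 36.2%).

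**Figure D1:**
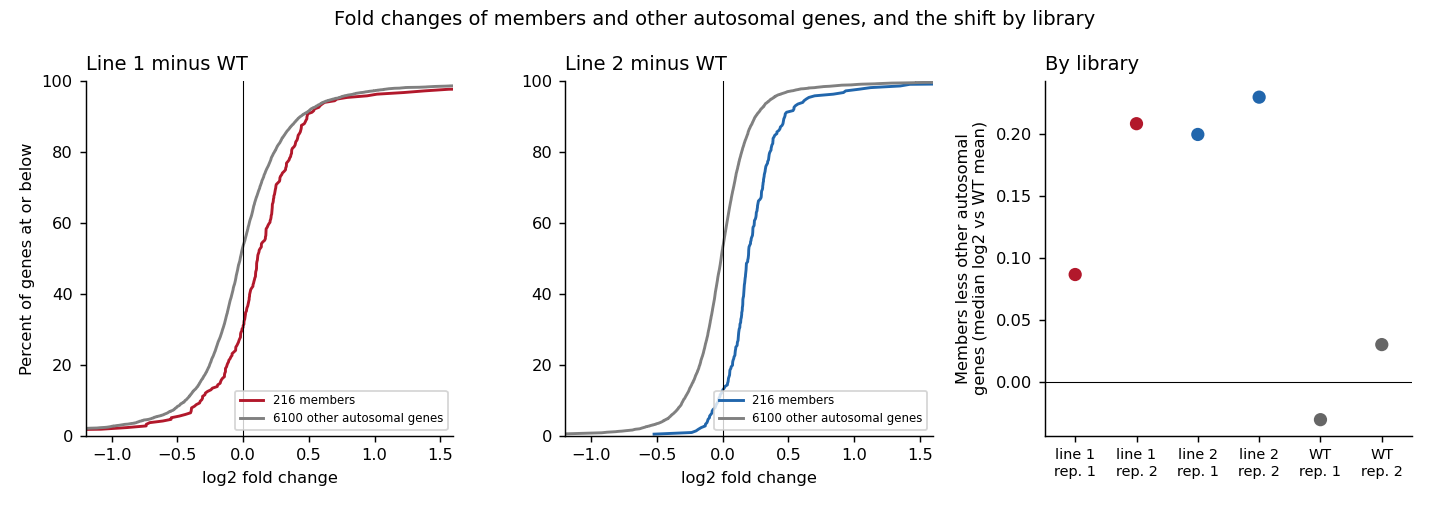
Left and middle: the percent of genes at or below each log2 fold change (x axis) in line 1 minus WT and line 2 minus WT, for 216 members (colour) and 6100 other autosomal genes (grey). Right: for each library, the median log2 level of the members relative to the WT mean, less the same median of the other autosomal genes; the 4 line libraries sit between 0.09 and 0.23 and the WT libraries at -0.03 and 0.03.

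The shift was seen in each line library. Against the WT mean and less the other autosomal genes, the members' median log2 level was 0.09 and 0.21 in the line 1 libraries, 0.20 and 0.23 in the line 2 libraries, and -0.03 and 0.03 in the WT libraries. The first line 1 library lay nearest to WT, and no line library fell between the WT values. The 2 WT values mirror each other by construction, since the base is their mean. The chromosome was selected on this higher level, so the separation is a description only. Set against the WT library of the same replicate number, the median less that of the other genes was 0.11 and 0.17 in the line 1 libraries, and 0.25 and 0.19 in the line 2 libraries. Chromosome 16 took up 3.28% and 3.46% of all autosomal exon counts in line 1, 3.60% and 3.65% in line 2, and 3.02% and 3.16% in WT.

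Other autosomes also had medians away from 0, and the place of chromosome 16 among them was not the same in both lines. In line 1 the median of chromosome 16 ranked 4 of 19 autosomes, with medians of the other 18 from -0.27 (chromosome 7) to 0.40 (chromosome 14). In line 2 it ranked 1, with the others from -0.29 (chromosome 7) to 0.10 (chromosome 5). Chromosome 7 was the lowest in both lines, and chromosome 14, the highest in line 1, lay at -0.06 in line 2. Both comparisons share the WT libraries, so they are no independent views of a shift.

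**Figure D2:**
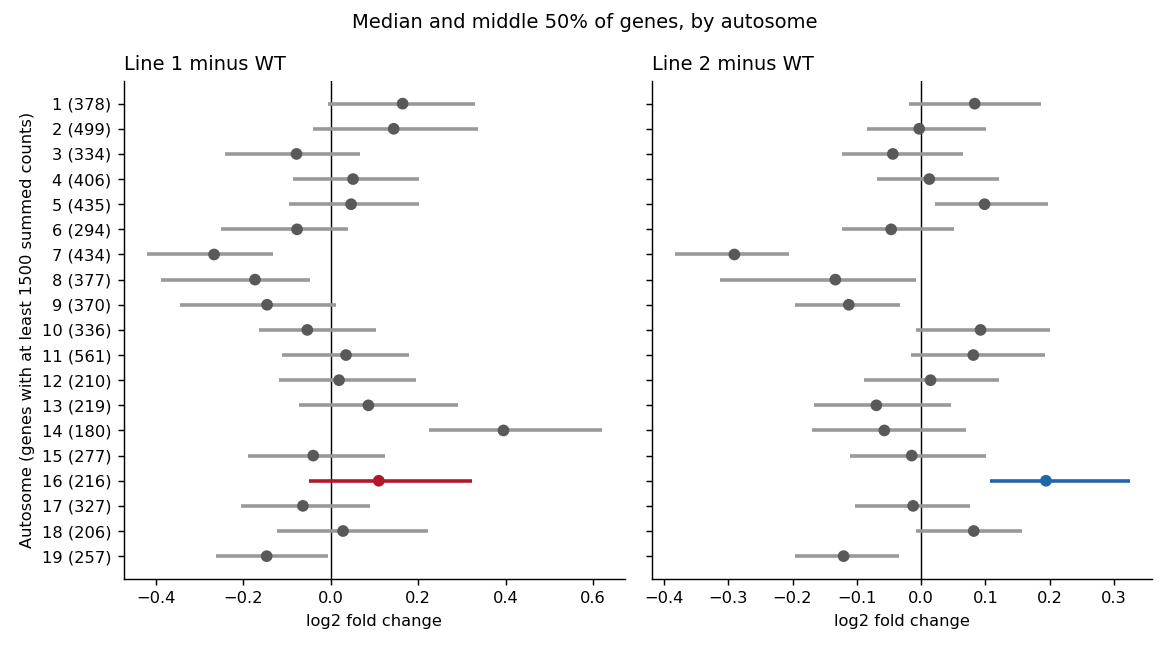
Median log2 fold change (point) and middle 50% of genes (line) for each of the 19 autosomes, in line 1 minus WT (left) and line 2 minus WT (right), over genes with at least 1500 summed counts; the number of genes is in parentheses. Chromosome 16 is coloured, at 0.11 in line 1 and 0.19 in line 2.

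Along the chromosome the higher level was spread over its whole length in line 2 and was greatest near the proximal end in line 1, leaving aside 2 windows with few members. By 10 Mb windows, line 2 medians ran from 0.13 to 0.32, all above 0. The proximal windows of line 1 were at 0.21 (24 members, 0 to 10 Mb), 0.17 (53 members) and 0.12 (23 members). Line 1 was closer to WT in the middle of the chromosome. Its next 3 windows, from 30 to 60 Mb, were at 0.04, 0.05 and 0.09, with 43, 14 and 13 members. The stretch from 60 to 80 Mb gave the highest medians of line 1 on the fewest genes. It was at 0.40 and 0.30 in line 1 and 0.23 and 0.32 in line 2, on 4 and 3 members. The distal windows, from 80 to 100 Mb, were at 0.08 and 0.07 in line 1 and 0.21 and 0.13 in line 2, with 11 and 28 members. All 24 members of the first window lay above 0 in line 2, and 21 of them in line 1.

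**Figure D3:**
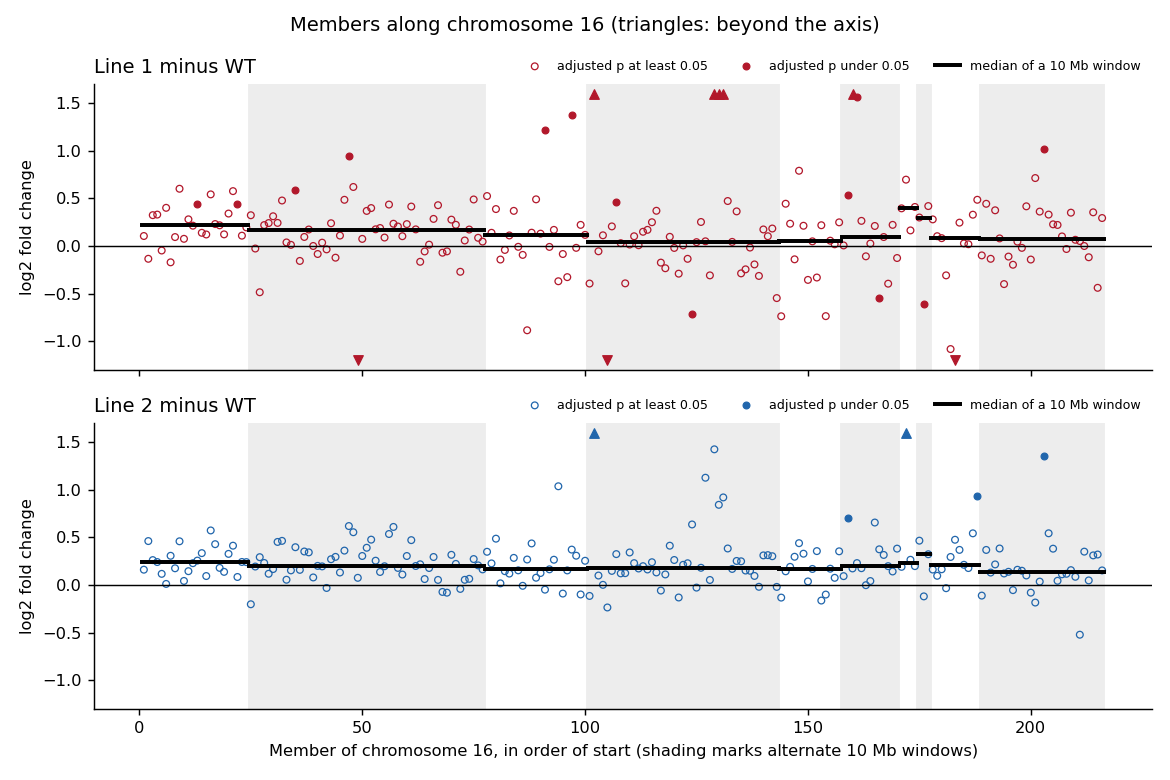
Log2 fold change of the 216 members in order of their start, in line 1 minus WT (above) and line 2 minus WT (below). Filled points passed an adjusted p of 0.05, triangles lie beyond the axis, and black bars are medians of 10 Mb windows, which stay above 0 throughout, at 0.04 or more in line 1 and 0.13 or more in line 2.

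By gene length the shift had no common order in the 2 lines, and by level it was larger in weakly expressed genes. Split into 3 equal classes of the other autosomal genes by mRNA length, the shortest members (58) had a median of 0.11 in line 1 and 0.16 in line 2, the middle ones (75) 0.16 and 0.20, and the longest (83) 0.08 and 0.23. Split by mean RPKM (CPM divided by transcript length), the lowest class (72 members) had medians of 0.22 in line 1 and 0.31 in line 2, the middle class (88) 0.11 and 0.20, and the highest class (56) 0.02 and 0.11. Other autosomal genes followed the same order by level, at 0.04, -0.01 and -0.06 in line 1. In line 2 they were at 0.04, -0.01 and -0.05, and the members lay above them in each class.

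Few members passed the test gene by gene in the fit of the groups alone, and more did once the replicate number was in the fit. A call here is an adjusted p under 0.05 in the fit of the groups alone, unless the replicate block is named. With edgeR's quasi-likelihood test over all 12910 genes tested, 15 of 216 members were higher in line 1 (6.94%, against 6.75% of all genes tested and 4.9% of the other autosomal genes with the same minimum) and 6 lower (2.78%, against 7.55% and 5.36%). In line 2, 5 were higher (2.31%, against 1.73% and 0.738%) and none lower (0 by edgeR and 0 by DESeq2, 1 at an unadjusted p under 0.05), against 1.85% of all genes and 0.984% of the other autosomal ones. Called higher in both lines were 3 members (1.39%, against 0.736% and 0.459%). With the replicate number as a block, edgeR called 51 members higher in line 1 (23.6%, against 16.3% of all genes tested and 14.1% of the other autosomal genes) and 18 lower (8.33%, against 16.1% and 16.3%). In line 2 the block gave 36 higher (16.7%, against 5.87% and 3.7%) and 1 lower (0.463%, against 6.25% and 5.15%). Every call made without the block was also made with it. The line against WT contrasts are those in which the chromosome was selected, so nothing is read from these shares. In 63 members (29.2%) all 4 line libraries lay above both WT libraries, against 11.8% of all genes tested and 9.18% of the other autosomal genes with the same minimum. In 6 members (2.78%) all 4 lay below, against 12.3% and 12.8%.

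The 3 members called higher in both lines were Lrrc15 (chr16:30269302-30283254, mm10), Runx1 (chr16:92601466-92697329) and Cblb (chr16:52031549-52208046). Lrrc15, a leucine-rich repeat membrane protein known as a marker of activated fibroblasts, was at 131 and 295 CPM in line 1, 20.4 and 21.996 CPM in line 2, against 2.53 and 3.52 CPM in WT. All 4 line libraries were far above both WT libraries, and line 1 was far above line 2. In line 1 it rose by 6.10 on the log2 scale (SE 0.50, edgeR adjusted p = 0.00126), and in line 2 by 2.76 (SE 0.52, adjusted p = 0.0461). Runx1, a transcription factor of blood and mesenchymal cells, had 158 and 178 CPM in line 1, 205 and 218 CPM in line 2, against 90.7 and 75.7 CPM in WT. The groups did not overlap. Line 1 was higher by 1.02 (SE 0.14, adjusted p = 0.00591, a call lost without WT replicate 2) and line 2 by 1.35 (SE 0.14, adjusted p = 0.0101). Cblb, an E3 ubiquitin ligase that damps receptor signalling, had 88.4 and 102 CPM in line 1, 106 and 108 CPM in line 2, against 64.2 and 67.5 CPM in WT. This was the smallest change of the 3 and again without overlap. Line 1 was higher by 0.54 (SE 0.13, adjusted p = 0.0385) and line 2 by 0.70 (SE 0.13, adjusted p = 0.0422). The call of Cblb in line 1 was lost with DESeq2 (adjusted p = 0.0617) and with no filter on low counts (edgeR adjusted p = 0.0525). It was also lost without any library other than line 1 replicate 1.

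The promoters of these 3 members are shown because they are the only ones called in both lines. They come from RefSeq (GRCm38.p6) and run from 250 bases before to 50 bases after a start, 5′ to 3′ in the sense of the gene: Lrrc15 at chr16:30283205-30283504 (minus strand), Cblb at chr16:52031299-52031598 (plus strand), and Runx1 at chr16:92697280-92697579 and chr16:92826025-92826324 (minus strand). Runx1 has a proximal and a distal promoter, and the transcript counted here starts at the proximal one. The second Runx1 transcript in the table, from the distal start, ends at the same base and had 400.5 and 889 counts in line 1, 575 and 1061.5 in line 2, against 248.5 and 327.5 in WT; how the counts divide between the promoters was not tested. Capitals mark the hexamer bound by RUNX factors, TGTGGT on either strand (ACCACA on the other).
Lrrc15: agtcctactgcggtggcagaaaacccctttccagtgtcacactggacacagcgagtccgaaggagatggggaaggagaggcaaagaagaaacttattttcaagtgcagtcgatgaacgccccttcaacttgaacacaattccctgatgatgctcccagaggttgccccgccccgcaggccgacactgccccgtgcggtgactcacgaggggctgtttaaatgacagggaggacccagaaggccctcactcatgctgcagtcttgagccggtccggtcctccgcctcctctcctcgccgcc
Cblb: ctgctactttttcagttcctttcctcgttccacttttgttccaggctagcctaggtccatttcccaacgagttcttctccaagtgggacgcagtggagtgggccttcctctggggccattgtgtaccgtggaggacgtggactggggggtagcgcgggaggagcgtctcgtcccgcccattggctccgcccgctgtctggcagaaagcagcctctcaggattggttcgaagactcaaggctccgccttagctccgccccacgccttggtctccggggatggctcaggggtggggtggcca
Runx1 proximal: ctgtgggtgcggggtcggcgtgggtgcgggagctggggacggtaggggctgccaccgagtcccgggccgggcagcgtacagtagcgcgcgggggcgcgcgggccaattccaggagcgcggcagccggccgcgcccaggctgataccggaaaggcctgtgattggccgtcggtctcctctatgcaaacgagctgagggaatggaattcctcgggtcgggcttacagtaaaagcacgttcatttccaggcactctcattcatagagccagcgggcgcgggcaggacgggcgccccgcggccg
Runx1 distal: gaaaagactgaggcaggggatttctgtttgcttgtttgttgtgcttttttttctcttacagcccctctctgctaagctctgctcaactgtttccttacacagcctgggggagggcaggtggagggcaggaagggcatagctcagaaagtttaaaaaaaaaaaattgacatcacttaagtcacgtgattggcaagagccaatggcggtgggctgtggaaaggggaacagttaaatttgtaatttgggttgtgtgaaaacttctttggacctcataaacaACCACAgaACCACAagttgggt
The hexamer occurs 2 times in the distal Runx1 promoter, just downstream of its start, and in none of the other 3 sequences. It is found in 16.8% of 32851 promoters of the same length in the RefSeq table and in 13.2% of the 212 promoters that matched 177 of the members. A second motif, GAAANNGAAA on either strand, the core of interferon response elements, is found in 3.44% of all promoters and in 2.83% of the members' promoters. The members with it are Alg1, Il1rap, Klhl22, Tomm70a and Zdhhc8. The RefSeq promoter of Dtx3l does not hold these letters. No promoter of Parp14 or Parp9 was available, so these genes were not searched. A match describes the letters only.

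Line 2 had 2 further calls. Epha3 (chr16:63545218-63864157), a receptor tyrosine kinase for ephrins that guides cell contact and repulsion, was at 33.8 and 25.9 CPM in line 1, 204 and 150 CPM in line 2, against 20.5 and 16.3 CPM in WT. Both line 2 libraries were far above all others, and the line 1 libraries were a little above WT. Line 2 was higher than WT by 3.28 (SE 0.24, adjusted p = 0.00425), and line 1 differed by 0.70 (SE 0.24, adjusted p = 0.115). Tiam1, an exchange factor that activates the GTPase Rac, had 122 and 137 CPM in line 1, 183 and 171 CPM in line 2, against 102 and 83.7 CPM in WT. It rose in line 2 by 0.94 (SE 0.14, adjusted p = 0.0257), and its value in line 1 was 0.48 (adjusted p = 0.0706). Under the block both were called higher in line 1 too, Epha3 with an edgeR adjusted p of 0.00482 and Tiam1 with 0.0197. With no filter on low counts Epha3 was called there as well (edgeR adjusted p = 0.0476). Of the 5 calls in line 2, only that of Epha3 held without WT replicate 1, without WT replicate 2, and without either line 2 library; without any 1 of these 4 libraries, the count of line 2 calls was 1.

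**Figure D4:**
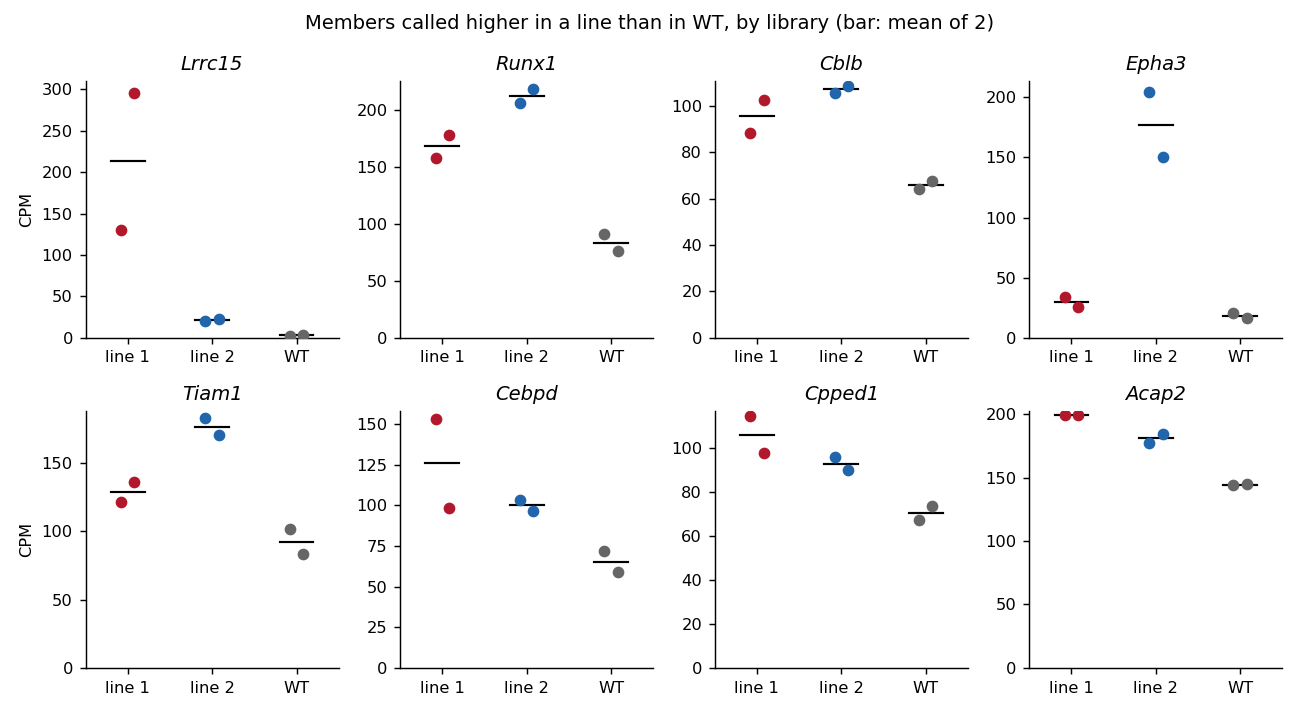
CPM (y axis, from 0) in each library of line 1, line 2 and WT for 8 members called higher in at least 1 line; points are libraries and bars the mean of 2. Lrrc15 reached 131 and 295 CPM in line 1, and Epha3 204 and 150 CPM in line 2, above all WT libraries.

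The antiviral genes rose in line 1. Parp14 (chr16:35832878-35871382), Dtx3l (chr16:35926515-35939027) and Parp9 (chr16:35938470-35972621) lie close together; Parp14 and Parp9 belong to the ADP-ribosyltransferase family, Dtx3l is the ubiquitin ligase that partners Parp9, and interferon induces all of them. Parp14 was at 369 and 133 CPM in line 1, 53.3 and 42.6 CPM in line 2, against 20.97 and 15.04 CPM in WT. Dtx3l had 265 and 109 CPM in line 1, 60.8 and 45.4 CPM in line 2, against 35.4 and 24.2 CPM in WT. Parp9 had 211 and 105 CPM in line 1, 52.8 and 43.3 CPM in line 2, against 29.8 and 21.3 CPM in WT. In each of them the order was line 1, line 2, WT with no overlap, and replicate 1 of line 1 was the highest by a wide margin. The log2 fold changes in line 1 were 3.81 (SE 0.52, adjusted p = 0.00646), 2.66 (SE 0.46, adjusted p = 0.0138) and 2.63 (SE 0.37, adjusted p = 0.00707) for Parp14, Dtx3l and Parp9. Those in line 2 were 1.42 (SE 0.51, adjusted p = 0.266), 0.84 (SE 0.45, adjusted p = 0.506) and 0.92 (SE 0.37, adjusted p = 0.331), and were not called. In the fit with the block, Parp14 (adjusted p = 0.0326) and Parp9 (adjusted p = 0.0283) were called in line 2, and Dtx3l was not (adjusted p = 0.0609). Parp14 was also called in line 2 with DESeq2 (adjusted p = 0.0194) and by edgeR with no filter on low counts (0.0101). Parp9 and Dtx3l were called there by neither. Parp9 and Dtx3l overlap at their starts on opposite strands. Use of the strand in counting is not stated, and a few of their counts may therefore be shared. The call of Dtx3l in line 1 was lost without WT replicate 1 and without WT replicate 2. The 10 listed interferon-stimulated genes of other chromosomes summed to 2433 and 753 CPM in line 1, 368 and 200 CPM in line 2, and 154 and 103 CPM in WT, the same order of libraries. Their part in the values of these members was not tested.

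The receptors that sense interferon were not called in either line without the replicate block. The list of cytokine receptors had 5 members, of which 1 was higher in line 1 (20%, against 6.75% of all genes tested). DESeq2 also called 1 there. At an unadjusted p under 0.05 there were 2, against 3618 of the 12910 genes tested. In line 2 edgeR called 0 of them, against 1.73% of all genes tested higher and 1.85% lower. DESeq2 called 0 too, and 1 passed unadjusted, against 1866 of the 12910 genes. The median log2 fold change was -0.11 in line 1 and 0.14 in line 2. Ifnar1 and Ifnar2, the 2 chains of the type I interferon receptor, had log2 fold changes of -0.11 and 0.08 in line 1 and 0.14 and 0.38 in line 2. Ifngr2, a chain of the interferon gamma receptor, had 121 and 115 CPM in line 1, 130 and 131 CPM in line 2, against 131 and 139 CPM in WT, with every line library just below both WT libraries. Il10rb, a chain of the interleukin-10 receptor family, was at -0.40 in line 1 and 0.12 in line 2. When the block was added, Ifnar2 was called higher in line 2 (adjusted p = 0.0342) and Il10rb lower in line 1 (adjusted p = 0.0329). The member called was Il1rap, the accessory chain of the interleukin-1 receptor, which lies elsewhere on the chromosome. It had 143 and 243 CPM in line 1, 83.3 and 109 CPM in line 2, against 66.7 and 81.9 CPM in WT, and rose by 1.38 (SE 0.28, adjusted p = 0.0249) in line 1. That call was lost without either WT library.

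Matrix and adhesion genes gave calls in both directions. Of 12 members of the list, 2 were higher (16.7%, against 6.75% of all genes tested) and 3 lower (against 7.55%) in line 1. In line 2, 2 were higher (16.7%, against 1.73%), and the medians were -0.10 and 0.34. The replicate block gave 4 of the 12 higher and 5 lower in line 1, against 16.3% and 16.1% of all genes tested. In line 2 it gave 4 higher, against 5.87%. Besides Lrrc15, Alcam, an adhesion molecule of the immunoglobulin family, rose in line 1, with 296 and 306 CPM in line 1, 27.6 and 59.8 CPM in line 2, against 27.5 and 50.2 CPM in WT (log2 fold change 2.93, SE 0.41, adjusted p = 0.00666). Line 2 and WT overlapped. Adamts5, a secreted protease that cleaves aggrecan, had 175 and 54.7 CPM in line 1, 826 and 766 CPM in line 2, against 554 and 591 CPM in WT. It fell in line 1 by 2.34 on the log2 scale (SE 0.49, adjusted p = 0.0275), a call lost without either WT library and without line 2 replicate 2, while line 2 was the highest group (0.47, adjusted p = 0.786). Adamts1, the neighbouring protease gene, had 293 and 143 CPM in line 1, 610 and 517 CPM in line 2, against 449 and 470 CPM in WT, and missed the threshold in line 1 (-1.08, edgeR adjusted p = 0.0769). It was called lower in line 1 with DESeq2 (adjusted p = 0.00315), with no filter on low counts (0.000733), with the replicate block (0.0111), without line 1 replicate 1 (0.00248) and, at the edge, without line 1 replicate 2. Heg1, a mucin-like receptor of cell junctions, fell in line 1 (-0.71, SE 0.15, adjusted p = 0.0280), as did Col8a1, a short-chain collagen (-0.55, SE 0.14, adjusted p = 0.0486). The call of Col8a1 was lost without any 1 of the 6 libraries, and that of Heg1 without any but line 1 replicate 1. In line 2 Heg1 and Col8a1 lay above WT, at 0.64 (SE 0.15, edgeR adjusted p = 0.0891) and 0.37 (SE 0.14, adjusted p = 0.277). Heg1 had 318 and 280 CPM in line 2, against 201 and 184 CPM in WT. It was called higher there with DESeq2 (adjusted p = 0.0332), with no filter on low counts (0.0106) and with the replicate block (0.00476). Col8a1 was called there by none of these. Fstl1, a secreted glycoprotein and the member with the highest level per length (139 RPKM over all libraries), was not called, at -0.25 in line 1 and 0.15 in line 2. Itgb5, an integrin chain, was at 0.04 and -0.03, and Nectin3, an adhesion receptor of junctions, at -0.74 and -0.10. Nectin3 was called in line 1 with the replicate block (edgeR adjusted p = 0.00292) and with no filter on low counts (0.0277).

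Fam43a and Pkp2 were among the lowest members without being on any list of matrix genes. Fam43a had 15.1 and 7.92 CPM in line 1, 84.3 and 61.5 CPM in line 2, against 86.7 and 84.5 CPM in WT. All 4 line libraries were below both WT libraries, but 1 line 2 library only narrowly. It fell in line 1 by 2.95 on the log2 scale (SE 0.32, adjusted p = 0.0028), and its value in line 2 was -0.24 (adjusted p = 0.842). Pkp2, a plakophilin of desmosomes, had 24.6 and 26.3 CPM in line 1, 101 and 119 CPM in line 2, against 86.4 and 122 CPM in WT, and fell in line 1 by 2.03 on the log2 scale (SE 0.21, adjusted p = 0.0023). Zbtb20, a zinc finger repressor, was also among the 6 lowest by the mean of both lines. It was at -0.74 in line 1 and -0.13 in line 2, neither called. In line 1 it was called with the replicate block (edgeR adjusted p = 0.0108) and with no filter on low counts (0.0190).

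In the edgeR fit of the groups alone, after the filter on low counts, Kalrn, Lpp and Arhgap31 were not called against WT in either line. Kalrn, a guanine nucleotide exchange factor, had 51.4 and 36.2 CPM in line 1, 98.8 and 84.6 CPM in line 2, against 49.0 and 35.4 CPM in WT. Line 1 and WT covered the same range and line 2 lay above both, but its log2 fold change in line 2, 1.13 (SE 0.24), missed the threshold (adjusted p = 0.0647). Lpp, a LIM protein of focal adhesions with the highest count between 20 and 30 Mb, was at -0.33 in line 1 and 0.15 in line 2. Arhgap31, an inactivator of Rac and Cdc42, was at -0.55 and -0.02. Under the replicate block, Kalrn was called in line 2 (adjusted p = 0.00206) and Arhgap31 in line 1 (adjusted p = 0.00211). The same calls were made with DESeq2 (adjusted p = 0.00345 for Kalrn and 0.0356 for Arhgap31). With no filter on low counts edgeR made them too (adjusted p = 0.00246 and 0.0110).

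The list of transcription factors and chromatin genes had 35 members. In line 1, 4 were higher (11.4%, against 6.75% of all genes tested) and 1 lower (2.86%, against 7.55%). In line 2, 1 was higher (2.86%, against 1.73%), and the medians were 0.08 and 0.16. With the replicate block, 7 of the 35 were higher and 2 lower in line 1, against 16.3% and 16.1% of all genes tested. In line 2, 3 were higher and 1 lower with the block, against 5.87% and 6.25%. Besides Runx1, the members higher in line 1 were Nfkbiz, an atypical IκB protein of the inflammatory response, Etv5, an ETS factor, and Cebpd, a C/EBP factor. Nfkbiz had 200 and 161 CPM in line 1, 70.0 and 72.9 CPM in line 2, against 60.1 and 61.8 CPM in WT (log2 fold change in line 1 1.57, SE 0.14, adjusted p = 0.00159). The groups did not overlap, and line 2 lay close to WT (0.23, adjusted p = 0.579). Etv5 had 83.0 and 90.3 CPM in line 1, 33.9 and 37.8 CPM in line 2, against 28.8 and 45.0 CPM in WT, and rose in line 1 by 1.22 (SE 0.22, adjusted p = 0.0175), a call lost without WT replicate 1. Cebpd had 153 and 98.5 CPM in line 1, 103 and 96.7 CPM in line 2, against 71.8 and 58.9 CPM in WT. It rose in line 1 by 0.94 (SE 0.23, adjusted p = 0.0429), a call lost without line 1 replicate 1, either WT library or either line 2 library. It overlaps Spidr on the opposite strand, which was at 0.62 in line 1 and 0.55 in line 2, so counts of these genes may be shared. Nrip1, a nuclear receptor corepressor, fell in line 1 by 0.61 on the log2 scale (SE 0.15, adjusted p = 0.0415), a call lost without any 1 of the 6 libraries. A further 4 members were called in line 1 by a small step. Cpped1 was higher by 0.59, Acap2 by 0.46, Cdip1 by 0.44 and Carhsp1 by 0.44. Each call was lost without either WT library and without either line 2 library. The call of Cdip1 was also lost without either line 1 library. That of Cpped1 was lost without line 1 replicate 1, and that of Carhsp1 without line 1 replicate 2. Those of Cdip1 and Carhsp1 were also lost with DESeq2 (adjusted p = 0.127 and 0.0880). With no filter on low counts edgeR lost these 2 as well (adjusted p = 0.103 and 0.0707).

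Among the other listed members the values were mostly small. Crebbp, a histone acetyltransferase and coactivator, was at -0.05 in line 1 and 0.12 in line 2, and Hmgn1, a nucleosome-binding protein, at -0.12 and 0.05. Son, a splicing scaffold with the highest count between 90 and 100 Mb, was at -0.02 and 0.15. The lists of mitochondrial, translation, replication and repair, and folding genes gave 0 calls against WT by edgeR after the filter on low counts without the block. DESeq2 also gave 0. With the block they had 3, 0, 3 and 1 calls in line 1, and 0, 0, 1 and 3 in line 2, all of them higher. Of all genes tested, the block called 16.3% higher in line 1 and 5.87% in line 2. At an unadjusted p under 0.05 they had 2, 0, 3 and 1 members in line 1, and 0, 0, 1 and 1 in line 2. Of the 12910 genes tested, 3618 passed that in line 1 and 1866 in line 2. The 10 mitochondrial members all lay above 0 in both lines, with medians of 0.14 and 0.13; Trap1, a mitochondrial chaperone, was at 0.33 and 0.24, with every line library above both WT libraries. Of 10 replication and repair members, 8 lay above 0 in each line, with medians of 0.24 and 0.22. Cdc45, part of the replicative helicase, had 86.0 and 96.6 CPM in line 1, 75.8 and 81.5 CPM in line 2, against 61.4 and 68.8 CPM in WT, above WT in all 4 libraries (0.49 and 0.27). Of 5 translation members, 3 lay above 0 in line 1 and 4 in line 2, with medians of 0.01 and 0.05, and Eif4g1, the scaffold of cap-dependent initiation, was at -0.09 and -0.01. The 13 members for protein folding, turnover and secretion had medians of 0.04 and 0.17, with 8 and 12 above 0. Of these, St6gal1 was at -0.37 in line 1 and 1.04 in line 2 (SE 0.34, edgeR adjusted p = 0.215). It was called higher in line 2 with the block (edgeR adjusted p = 0.00325) and with no filter on low counts (0.0265).

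Orthologs of human chromosome 21 and of 22q11 had medians close to that of all members. Of 42 members with an ortholog on human chromosome 21, 27 lay above 0 in line 1 and 35 in line 2, with medians of 0.08 and 0.16, and in 11 all line libraries were above both WT libraries (26.2%, against 29.2% of all members and 11.8% of all genes tested). Calls in this list were Runx1 higher, Adamts5 and Nrip1 lower in line 1, and Runx1 and Tiam1 higher in line 2. With the replicate block, 10 of the 42 were higher and 5 lower in line 1, against 16.3% and 16.1% of all genes tested. In line 2 the block gave 6 higher and 1 lower, against 5.87% and 6.25%. App, the amyloid precursor protein, had 428 and 254 CPM in line 1, 453 and 371 CPM in line 2, against 458 and 386 CPM in WT, and was at -0.31 and -0.03. Dyrk1a, a kinase with known dosage effects in human disease, had 187 and 200 CPM in line 1, 201 and 192 CPM in line 2, against 187 and 184 CPM in WT, all 4 line libraries above both WT libraries by a small step (0.06 and 0.09). Of 25 members with an ortholog in human 22q11, 20 lay above 0 in line 1 and 22 in line 2, with medians of 0.17 and 0.20. In either line 0 were called by edgeR after the filter on low counts, or by DESeq2. At an unadjusted p under 0.05 there were 4 of the 25 in each line. Of the 12910 genes tested, 3618 passed that in line 1 and 1866 in line 2. The block called 5 of the 25 higher in line 1 (against 16.3% of all genes tested) and 4 in line 2 (against 5.87%). In 11 of the 25 all line libraries were above both WT libraries (44.0%, against 29.2% of all members and 11.8% of all genes tested). Pi4ka, a lipid kinase, had 159 and 163 CPM in line 1, 183 and 162 CPM in line 2, against 123 and 116 CPM in WT. All line libraries were above both WT libraries (log2 fold change 0.43 in line 1 and 0.54 in line 2). Pi4ka was called in both lines with the block (edgeR adjusted p = 0.00971 and 0.0109). With no filter on low counts it was called in line 2 (edgeR adjusted p = 0.0365).

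The 2 lines were then compared with each other, a contrast the choice of the chromosome did not use. Line 2 was above line 1 at 141 of 216 members (65.3%, against 50.7% of the other autosomal genes). The median log2 difference was 0.09, against 0.00 in those genes. Chromosome 16 ranked 2 of 19 autosomes by this median, and the other 18 ran from -0.46 (chromosome 14) to 0.12 (chromosome 10). By edgeR 14 members were higher in line 2 than in line 1 (6.48%, against 6.87% of all genes tested and 4.51% of the other autosomal genes with the same minimum) and 8 lower (3.70%, against 5.76% and 4.36%). The share called higher thus lay between both backgrounds, and the share called lower was under both. With the replicate block, 41 were higher (19.0%, against 13.4% and 11.7%) and 17 lower (7.87%, against 13.8% and 12.3%). The largest positive differences were Adamts5 (2.81, SE 0.50, adjusted p = 0.0166), Fam43a (2.71, SE 0.32, adjusted p = 0.00399), Epha3 (2.58, SE 0.23, adjusted p = 0.00163) and Pkp2 (2.11, SE 0.21, adjusted p = 0.00217). Of these, Epha3 was called higher than WT in line 2, while Adamts5, Fam43a and Pkp2 were called lower than WT in line 1. St6gal1, a Golgi sialyltransferase, had 69.5 and 99.8 CPM in line 2 and 22.4 and 40.5 CPM in line 1 (1.41, SE 0.34, adjusted p = 0.0467). Adamts1 was higher as well (1.38, SE 0.32, adjusted p = 0.0410), and Heg1 was at 318 and 280 CPM in line 2 and 131 and 105 CPM in line 1 (1.35, SE 0.15, adjusted p = 0.0034). By list, 5 of 12 matrix and adhesion members were higher in line 2 than in line 1 (41.7%, against 6.87% of all genes tested). Lower were 2, Lrrc15 and Alcam (16.7%, against 5.76%). Also called were Kalrn (1.08), Tvp23a (0.78), C2cd2 (0.76) and Naa60 (0.60).

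The members lower in line 2 than in line 1 were headed by Lrrc15 (-3.33, SE 0.40, adjusted p = 0.00436), Alcam (-2.76, SE 0.40, adjusted p = 0.00818) and Parp14 (-2.39, SE 0.48, adjusted p = 0.0249). All 3 members of the interferon-induced list were lower in line 2 (100%, against 5.76% of all genes tested). Besides Parp14 these were Dtx3l at -1.81 (SE 0.43, edgeR adjusted p = 0.0442) and Parp9 at -1.71 (SE 0.35, adjusted p = 0.0276). Nfkbiz (-1.34, SE 0.14, adjusted p = 0.0027) and Etv5 (-1.27, SE 0.22, adjusted p = 0.0162) followed. Slc5a3, the myo-inositol transporter, was at 160 and 167 CPM in line 2 and 241 and 368 CPM in line 1 (-0.90, SE 0.20, adjusted p = 0.0376). It overlaps Mrps6 on the same strand, so counts of these genes may be mixed. Without line 2 replicate 1 the count of members called between the lines was 7, without line 2 replicate 2 it was 8, and without WT replicate 2 it was 14. The calls of Epha3, Fam43a, Pkp2, Heg1, Lrrc15, Alcam and Nfkbiz held without each library in turn. Those of Adamts5, Parp14, Parp9 and Etv5 were lost without either line 2 library, and those of St6gal1, Adamts1, Dtx3l and Slc5a3 also without either WT library (St6gal1 without line 1 replicate 1 too).

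**Figure D5:**
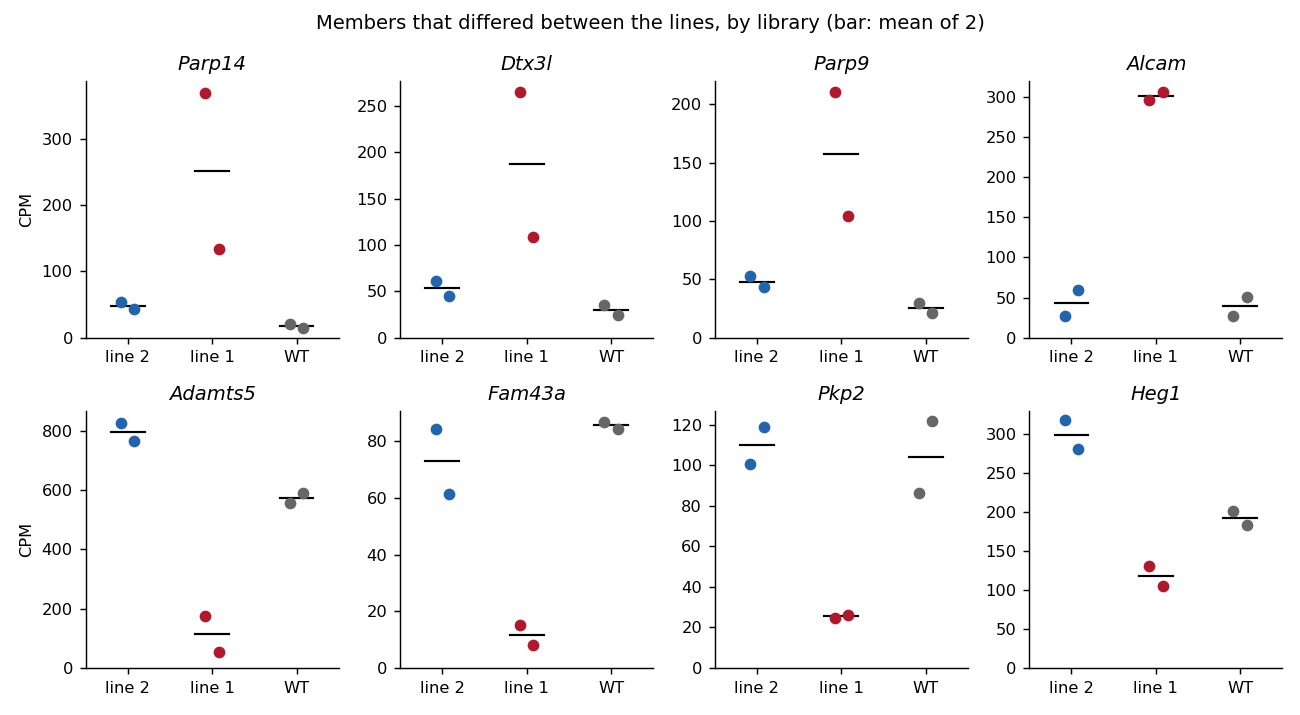
CPM (y axis, from 0) in each library of line 2, line 1 and WT for 8 members that differed between the lines; points are libraries and bars the mean of 2. Parp14, Dtx3l, Parp9 and Alcam are highest in line 1, while Adamts5, Fam43a, Pkp2 and Heg1 are lowest there.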

How the data were processed

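RNA of 6 libraries was ribosome-depleted and sequenced as 50-base pairs with a directional kit, per the labels' protocols. The authors deposited expected counts per RefSeq transcript on mm10, made with HOMER over exons without normalization per the file headers; the submitters' processing notes also name Trim Galore 0.4.1, TopHat2, SAMtools and bedtools 2.25.0. Whole counts had been assumed; 36.95% of values were not whole, so they were rounded, with 0.5 rounded up. For symbols with several transcripts the one with the highest total was used. A quasi-likelihood model of the 3 groups was fitted to all 6 libraries with edgeR 4.0.16 in R 4.3.3, after filterByExpr (12910 genes tested) and TMM scaling, with 3 residual degrees of freedom, and Benjamini-Hochberg adjusted p under 0.05 over all genes tested; the fitting was tested on simulated data. SE is the log2 fold change divided by the root of F. Levels per library used a pseudocount of 0.5 CPM on the log2 scale. Alternatives included DESeq2 1.42.0 and the replicate number as a block: same-numbered libraries deviated together in all 3 pairs of groups (correlation of replicate differences 0.53 to 0.59 over genes), a pairing taken from the data and not stated in the labels. Genes were named if on a gene list, among the 8 highest by RPKM, the 6 highest or lowest by mean change, up to 6 each way between lines, the highest count of a 10 Mb window, or next to the minimum; further called members and Alg1, a promoter match, were named after their values were seen. Members and lists were chosen with earlier results of these data known. A total of 54 members overlap another symbol of the table. Allele values, site lists and the other assays were not used here. Results that need an item withheld for evaluation are not reported here.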

Additional observations from a re-analysis of the deposited data

Results flagged for a closer look

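The line 2 minus line 1 contrast is a direct test of whether the 2 deleted lines differ, and 22 of 216 members passed it by edgeR with an adjusted p under 0.05 (10.2%, against 12.6% of all genes tested and 8.87% of the other autosomal genes with the same minimum). The 6 with the highest log2 fold change were Adamts5 (2.81), Fam43a (2.71), Epha3 (2.58), Pkp2 (2.11), St6gal1 (1.41) and Adamts1 (1.38). The 6 with the lowest were Lrrc15 (-3.33), Alcam (-2.76), Parp14 (-2.39), Dtx3l (-1.81), Parp9 (-1.71) and Nfkbiz (-1.34). Groups of 2 libraries allow no search for single outlying samples. The cause of these differences was not tested.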

How the results depend on the processing

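The median shift of the members less that of other autosomal genes (0.13 in line 1, 0.21 in line 2) stayed above 0 in every alternative tried. All alternatives used the libraries in which the chromosome was selected, so this sign is a description and no independent support. Leaving out 1 library at a time, the shift ran from 0.07 to 0.21 in line 1 and from 0.18 to 0.27 in line 2. In line 2 it was 0.18 with a minimum of 5000 summed counts and 0.25 within replicate 1, an alternative chosen after seeing the data. Counts of called members moved much more. Leaving out 1 library, they ran from 8 to 30 in line 1 (21 with all), from 1 to 11 in line 2 (5 with all) and from 7 to 30 between the lines (22 with all). With the 2 compared groups alone, 11 members were called in line 1 and 11 in line 2. Line 2 had 8 calls with DESeq2 and 11 with no filter on low counts. A minimum of 500 gave 39, 12 and 35 calls and 96 members above WT in all 4 line libraries, over 313 members. A minimum of 5000 gave 5, 1 and 7 calls and 10 such members, over 57, fewer by construction. Shares of other genes at these minima are not given here, so nothing is read from these counts. With the replicate block, 69, 37 and 58 members were called, and no call was lost; replicate 1 was also the shallower library in every group, so pairing and depth cannot be told apart. Of 48 calls on members, 15 held in all 13 alternative fits and none reversed. Each group had 2 libraries, of 3.81e+06 to 7.06e+06 counts; the smallest change that could be called was not tested.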
